A study of Mus musculus with 38 samples.

Results

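The Dlk1-Dio3 imprinted domain was described here through 6 of the 55413 annotated mouse genes: Dlk1, Meg3, Rtl1, Rian, Mirg and Dio3. They were taken by name, at their GRCm38 positions, from 0.9 Mb of chromosome 12, where 118 genes are annotated in all. Dlk1 lies at chr12:109452823-109463336 on the plus strand, Meg3 at chr12:109541001-109571726 (plus), Rtl1 at chr12:109589193-109600330 (minus), Rian at chr12:109603940-109661716 (plus), Mirg at chr12:109729764-109749460 (plus) and Dio3 at chr12:110279068-110281097 (plus). The domain was selected on the input reads of these libraries, as part of a stretch of 16 Mb in which IκBα-KO input chromatin gave fewer reads than IκBα-WT input, so the raw difference in called sequence between the genotypes is given as a description, without a test. The study profiled 5 histone modifications by chromatin immunoprecipitation followed by sequencing (ChIP-seq) in mouse embryonic stem cells (mESCs) of the ES-E14TG2a line, kept in serum with leukaemia inhibitory factor (LIF) and collected at 0 h. IκBα-KO (KO) cells carried CRISPR/Cas9 edits from guides against exon 1 of Nfkbia, the gene for the NF-κB inhibitor IκBα, and IκBα-WT (WT) cells had received scrambled guides that target nothing. There were 3 libraries per genotype and modification, 30 in all, which the methods describe as separate single-cell clones, and all 3 clones of a genotype were set against 1 input, with H3K27ac and H3K4me1 sharing theirs. Every WT and KO value therefore comes from clones of 1 cell line, and a feature of an input is shared by the 3 libraries of its genotype.

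The domain is among the best known imprinted loci of the mammalian genome. Dlk1, Rtl1 and Dio3 are protein-coding genes transcribed from the paternally inherited chromosome, whereas Meg3, Rian and Mirg are non-coding transcripts of the maternal chromosome that carry snoRNAs and many microRNAs. The switch is a germline differentially methylated region in the intergenic sequence upstream of Meg3, methylated on the paternal chromosome, where the zinc finger protein ZFP57 binds methylated TGCCGC hexamers and recruits KAP1 with enzymes that deposit H3K9me3. H3K4me3 marks promoters and CpG-rich starts, H3K27ac and H3K4me1 mark promoters and enhancers, H3K27me3 is the mark of Polycomb repression, and H3K9me3 marks heterochromatin and imprinting control regions. ChIP-seq reads in these lists were not split by allele, so nothing here separates the maternal from the paternal chromosome.

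A library is said to call a sequence where the deposited list of that library holds it at a false discovery rate under 0.05. The H3K4me3 lists held 21836 to 26806 peaks per library and the lists of the other 4 modifications 35979 to 76172 regions, the latter with 8548342 to 35951506 ChIP reads per library. In 1 Mb windows of the stretch, KO minus WT input reads per kb within called sequence, centred on the genome, had a median log2 difference of −0.98 for H3K27ac, −1.01 for H3K27me3, −0.95 for H3K4me1 and −0.73 for H3K9me3, where 6 to 11 windows could be measured. The number of copies of the stretch in the KO clones was not tested, and at an imprinted domain this includes whether both parental copies are present. A difference in copy number and a difference in mark cannot be told apart in any KO value given here. In the windows that hold the domain the log2 difference of input reads ran from −1.02 to −0.58. ChIP reads per kb in the windows of the stretch had median log2 differences of −0.33, −0.43, −0.60 and −0.48, in the order of modifications given for input. All 8 mESC markers were called for H3K27ac in all 6 libraries, and 2 of them for H3K27me3 in all 6. The 4 primitive endoderm, 3 trophectoderm and 4 fibroblast markers were called for H3K27me3 in all 6, and 3, 2 and 2 of them for H3K27ac too. H3K4me3 was called in all 6 at 7 mESC markers and at 4, 1 and 2 of the other lists in that order. Nfkbia itself was called for H3K27ac and H3K4me3 in all 6 libraries of each, which says nothing about its protein.

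The 3 sequences printed here lie at or beside the H3K4me3 peaks near Meg3 and Dio3 and are printed 5′ to 3′ on the plus strand of GRCm38, with every TGCCGC hexamer or its reverse complement GCGGCA in capitals, since this is the hexamer that ZFP57 reads. The first is the piece of 235 bp at chr12:109528247-109528481, −12.8 kb from the Meg3 start, that all 6 H3K4me3 libraries called. The second is the 250 bp before the first Meg3 start in RefSeq, at chr12:109540746-109540995, which the H3K4me3 call of KO clone 2 alone reached. The third is the 250 bp before the Dio3 start, at chr12:110278818-110279067, read from the genome.
H3K4me3 piece before Meg3: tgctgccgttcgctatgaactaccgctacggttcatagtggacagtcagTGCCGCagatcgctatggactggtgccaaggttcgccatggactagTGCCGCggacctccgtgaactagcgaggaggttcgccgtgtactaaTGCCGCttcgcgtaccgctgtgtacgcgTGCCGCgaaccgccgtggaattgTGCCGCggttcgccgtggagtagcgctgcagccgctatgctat
Meg3 promoter: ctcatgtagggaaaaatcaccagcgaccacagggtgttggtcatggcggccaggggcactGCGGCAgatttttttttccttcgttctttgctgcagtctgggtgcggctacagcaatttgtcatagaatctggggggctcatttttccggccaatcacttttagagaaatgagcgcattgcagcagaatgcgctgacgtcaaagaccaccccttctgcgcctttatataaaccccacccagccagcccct
Dio3 promoter: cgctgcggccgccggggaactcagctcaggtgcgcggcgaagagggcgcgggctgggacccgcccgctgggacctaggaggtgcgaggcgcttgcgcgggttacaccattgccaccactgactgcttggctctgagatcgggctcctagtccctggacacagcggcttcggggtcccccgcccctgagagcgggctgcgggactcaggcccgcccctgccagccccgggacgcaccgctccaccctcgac

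The piece before Meg3 held 29 CpG dinucleotides and 5 of these hexamers. The Meg3 promoter held 10 CpG and 1 hexamer, and the Dio3 promoter 26 CpG and 0 hexamers. Among 32544 RefSeq promoters of 250 bp, 8.75% held the hexamer on either strand, and among 68084 consecutive tiles of 235 bp across the stretch 2.02% did. Only 0.191% of those tiles held at least 29 CpG, against a median of 2. A match in these letters describes the sequence and does not show that a factor was bound.

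Across the domain the KO lists covered less sequence than the WT lists for all 5 modifications without overlap of the libraries, and so did they in the rest of the stretch. H3K27me3 calls covered 38.0%, 41.1% and 42.9% of the domain in the WT clones and 18.3%, 18.8% and 17.4% in the KO clones. H3K9me3 calls covered 14.7%, 13.2% and 15.4% in WT and 3.20%, 2.69% and 2.93% in KO. The groups were far apart for both repressive marks. H3K27ac calls covered 21.0%, 22.0% and 22.2% of the domain in WT against 7.09%, 7.78% and 6.87% in KO, and H3K4me1 calls 26.2%, 26.3% and 24.9% against 11.9%, 12.9% and 14.5%. H3K4me3 covered 0.625%, 0.604% and 0.766% in WT and 0.416%, 0.581% and 0.517% in KO, again with no overlap although KO clone 2 came close to WT clone 2. That separation was lost with peaks of q under 0.01, where WT clone 1 was at 0.563% and KO clone 2 at 0.581%, and with equal numbers of top-ranked peaks, where WT clone 1 was at 0.465% and KO clones 2 and 3 at 0.501% and 0.489%. In the rest of the stretch the KO libraries also lay below all WT libraries for every mark, for example at 4.44% to 5.61% against 16.9% to 20.3% for H3K27me3. The map of calls shows where the remaining KO calls lay.

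**Figure D1:**
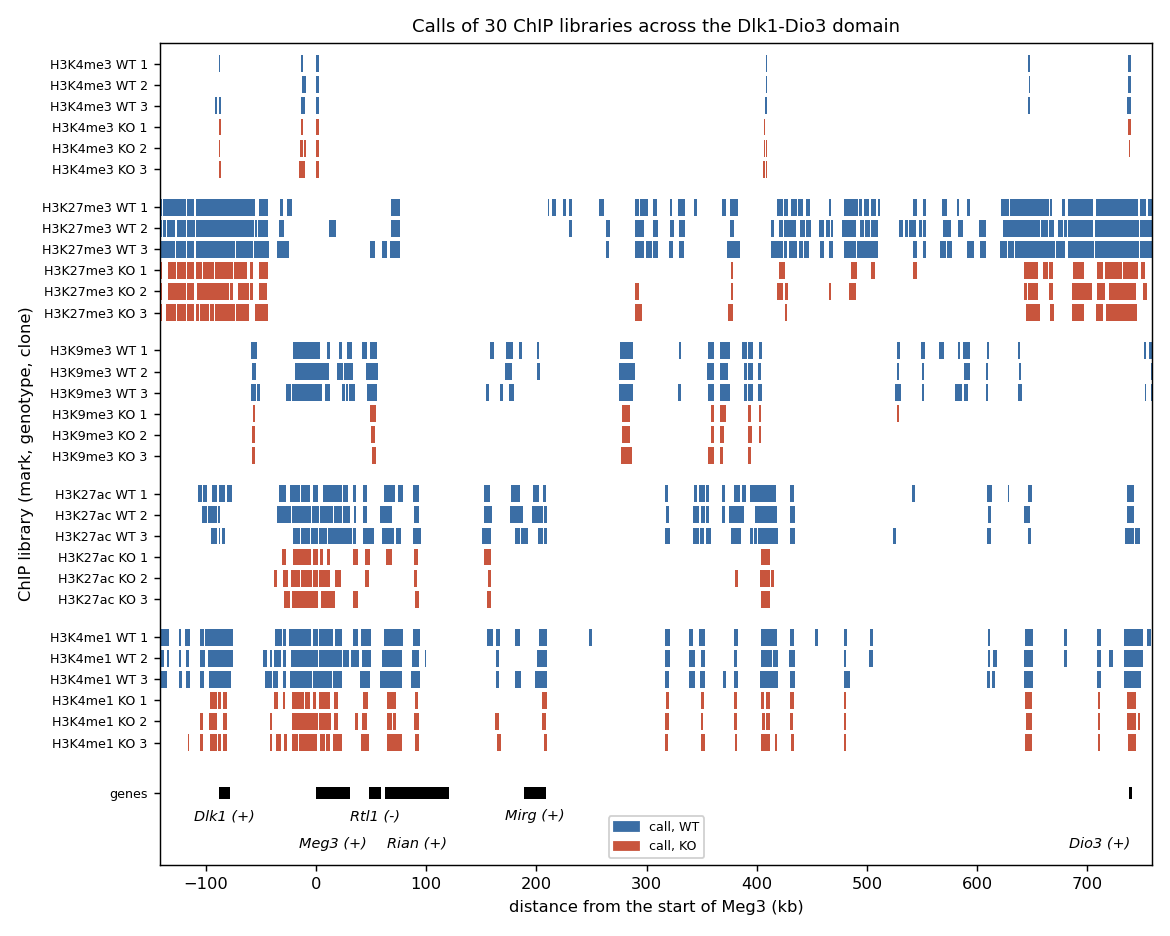
Calls of the 30 ChIP libraries across the domain, by distance from the Meg3 start in kb (x axis), with 1 row per library (blue WT, red KO) and gene bodies in black. KO calls gathered at Dlk1, around the Meg3 start, in the sequence between Mirg and Dio3 and at Dio3, and H3K9me3 over Meg3 was called in WT libraries alone.

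Around the Meg3 start the modifications differed in what the KO libraries called. A WT H3K27me3 region from −34.8 to −22.0 kb had no KO call. The same held for 158 of 280 WT H3K27me3 regions in the rest of the stretch and 2.47% over the rest of the genome. H3K9me3 formed a WT region from −21.8 to +7.0 kb (chr12:109519201-109548000), and it was called in no KO library. It spanned 24.2, 26.0 and 27.8 kb in the 3 WT clones (26.0 kb on average) with 1508, 1377 and 1424 ChIP reads against 500, 538 and 570 input reads, which is 2.68 ChIP reads per input read. All 3 WT clones were alike in width and read number. A missing KO call alone was not particular to Meg3, since 9 of 19 WT H3K9me3 regions of the domain and 104 of 193 in the rest of the stretch (53.9%) had no KO call either, against 4.08% over the rest of the genome. Most of those were narrower or weaker. Of the 14 regions in the rest of the stretch that were at least 10 kb wide and at least as enriched, 14 were called in all 3 KO libraries and retained a median of 53.0% of their WT length, with a lowest value of 33.2%. With a minimum of 5 kb, chosen after seeing the data as was 10 kb, 24 of 30 were called in all 3 KO libraries, and with no minimum 38 of 69 were. Over the rest of the genome 2370 of 2383 such regions of at least 10 kb were called in all 3 KO libraries and 10 in none.

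The H3K9me3 region at Meg3 was also rich in the hexamer. It held 11 of them, or 3.82 per 10 kb, against a median of 0.776 per 10 kb in 22 other H3K9me3 regions of the stretch at least 10 kb wide, 1 of which was as high. Its CpG content was 16.8 per kb against a median of 9.83, with 2 others as high. Of the other H3K9me3 regions of the domain, some were still called in the KO and some were not. Over the Meg3 body, the regions from +7.8 to +12.8 kb and from +18.8 to +35.8 kb had no KO call. The same held from +171.4 to +179.4 kb and from +386.2 to +391.2 kb. The 4 domain regions at least 10 kb wide retained a median of 21.4%, with a lowest value of 0. The region over Rtl1, from +42.0 to +56.0 kb, spanned 10.8, 10.6 and 9.4 kb in WT and 5.4, 4.4 and 3.4 kb in KO, and the region from +275 to +289.6 kb spanned 11.8, 14.2 and 12.8 kb in WT and 7.6, 6.8 and 10.4 kb in KO. Both were narrower in every KO clone than in any WT clone.

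In fold enrichment over input, H3K4me3 ran the other way at the peaks around the piece printed first. The fold is over each genotype's own input, and the part of the lower KO input in it was not tested. The highest fold enrichment over input, the ratio the peak caller gives at the summit, was 3.22, 3.52 and 3.16 in the 3 WT clones for the peaks between −13.3 and −12.4 kb, and 6.32, 6.80 and 7.77 in the KO clones (3.30 ± 0.195 against 6.96 ± 0.738, mean ± SD, n = 3 each). Every KO clone lay above every WT clone, a difference of 1.07 on the log2 scale. Called length did not separate the groups. In the window of Gm27528, which holds these peaks, it was 0.784, 1.16 and 0.736 kb in WT and 0.807, 1.49 and 1.64 kb in KO. Among 95 merged H3K4me3 peaks of the rest of the stretch called in all 6 libraries, the median log2 difference was −0.23, the highest was 0.70, and in 5 of them (5.26%) all KO clones lay above all WT clones. Over 14810 such peaks of the rest of the genome the median was 0.07, 1.67% were at least as high, and 20.4% had all KO clones above. At the Meg3 start itself the peak from −0.23 to +1.88 kb had a fold enrichment of 5.93, 7.33 and 6.72 in WT and 7.96, 6.10 and 8.59 in KO. These groups overlapped, with a log2 difference of 0.17 that 16 of the 95 peaks reached.

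The sequence upstream of Meg3 was still called for H3K27ac and H3K4me1 in every KO clone. The H3K27ac region from −22.2 to +2.0 kb, merged from the KO calls, spanned 21.0, 23.2 and 21.4 kb in WT and 20.8, 22.4 and 24.0 kb in KO, so the groups overlapped. ChIP reads per kb within it were 69.9, 66.8 and 79.1 in WT and 85.0, 79.2 and 67.1 in KO, again overlapping, while input reads per kb were 29.9 to 30.1 in WT and 18.0 to 18.3 in KO. The WT region from −35.6 to −4.4 kb spanned 23.2, 30.4 and 15.0 kb in WT and 19.8, 22.6 and 23.0 kb in KO, and so retained 95.3% of its length. The adjoining region from −4.4 to +2.6 kb retained 94.3%. Of 288 WT H3K27ac regions in the rest of the stretch, which retained 21.8% of their length in sum, 0 reached the first value and 1 reached the second. The first value rests on WT clone 3, since without that clone it was 81.3% and 4 of the 288 regions were as high, and it ran from 92.7% to 114% without any other 1 library (a check chosen after seeing the data). H3K4me1 from −24.0 to +23.6 kb spanned 44.2, 44.8 and 44.2 kb in WT and 32.0, 37.2 and 38.0 kb in KO, narrower in every KO clone, and the 80.5% retained was reached by 13 of 453 regions in the rest of the stretch. The H3K27ac region over the Meg3 body, from +2.8 to +32.4 kb, retained 45.9%.

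**Figure D2:**
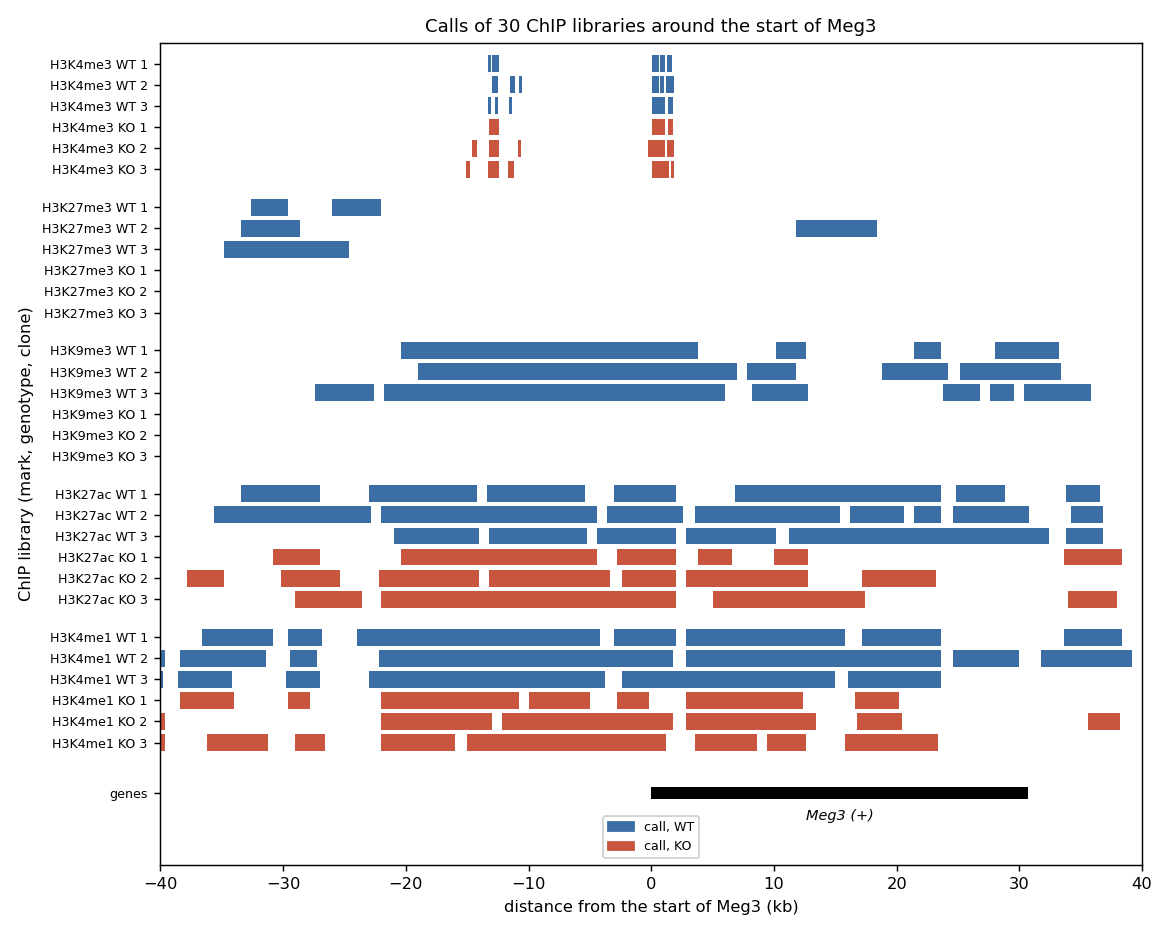
Calls around the Meg3 start by distance in kb (x axis), 1 row per library, WT blue and KO red, with the Meg3 body in black. H3K9me3 was called in the 3 WT libraries alone, as was H3K27me3 from −34.8 to −22.0 kb. H3K27ac calls before the Meg3 start were present in both genotypes. H3K27ac calls over the Meg3 body and H3K4me1 calls were shorter in KO. H3K4me3 peaks at −13.3 to −12.4 kb were present in all 6 libraries.

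**Figure D3:**
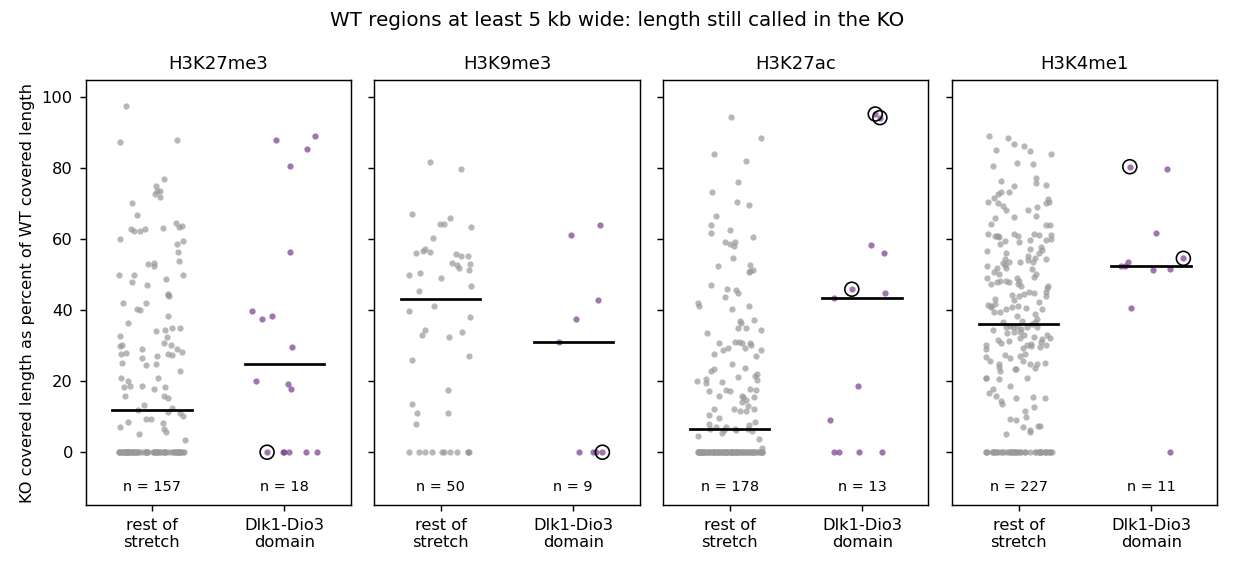
Length called in KO as a percent of the length called in WT (y axis) for WT regions at least 5 kb wide, in the rest of the stretch (grey) and in the domain (purple), with lines at the medians and rings around domain regions that begin within 40 kb before or 5 kb after the Meg3 start. The ringed H3K27ac regions reached 95.3% and 94.3%, above nearly all of the 178 grey points, and the ringed H3K9me3 region lay at 0.

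The protein-coding genes at both ends of the domain lay under broad H3K27me3, the Polycomb mark, in both genotypes. At Dlk1, which encodes a transmembrane protein of the Notch ligand type, the H3K27me3 region from −108.6 to −42.4 kb spanned 61.6, 63.8 and 64.6 kb in WT and 53.6, 52.6 and 56.0 kb in KO. Its ChIP reads per kb were 54.1, 55.4 and 55.6 in WT and 39.4, 42.7 and 36.5 in KO, and its input reads per kb 15.2 to 15.3 and 10.1 to 10.5. Both quantities were lower in every KO clone. At Dio3, the deiodinase that inactivates thyroid hormone, the region from +706.6 to +746.6 kb spanned 38.0, 39.8 and 40.0 kb in WT and 35.4, 33.2 and 35.2 kb in KO. ChIP reads per kb were 83.4, 84.9 and 83.4 in WT and 49.2, 53.9 and 46.4 in KO, with input at 18.3 to 18.4 and 9.86 to 10.2. The lengths retained, 85.4% at Dlk1 and 88.1% at Dio3, were reached by 3 and 1 of 280 WT regions in the rest of the stretch, which retained 28.1% in sum. Set only against the rest-of-stretch regions at least as enriched and 10 kb wide, the medians were 63.6% of 11 regions for Dlk1 and 79.0% of 4 regions for Dio3.

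The active marks at Dio3 and Dlk1 differed. At Dio3 the H3K4me3 peaks from +736.7 to +738.8 kb, over the promoter printed above, reached a fold enrichment of 11.3, 8.13 and 13.4 in WT, 4.64 and 5.08 in KO clones 1 and 2, and were not called in KO clone 3. Both KO clones with a call lay below every WT clone, and 26.6% of the WT length was retained. With the uncalled library set at a fold of 1, limma gave Dio3 H3K4me3 a log2 difference of −1.90 (adjusted p = 0.0533), which did not pass the threshold. In the rest of the stretch 44 H3K4me3 peaks were at least as enriched in WT, all 44 were called in all 3 KO libraries, and the lowest retained 45.3%. The H3K27ac region at Dio3 spanned 6.8, 6.4 and 8.2 kb in WT and had no KO call, which held for 60.8% of all WT H3K27ac regions in the rest of the stretch and 4.71% over the rest of the genome. By contrast, 38 of 42 regions in the rest of the stretch that were at least as enriched and 5 kb wide were called in all 3 KO libraries and 1 in none. H3K4me1 over Dio3 spanned 16.0 kb on average in WT and retained 53.8%. In the Dlk1 window, the gene body with 5 kb on either side, H3K4me3 was irregular and had no call in WT clone 2. The highest fold in the window was 7.77 and 6.63 in WT clones 1 and 3, and 4.74, 6.94 and 6.13 in the KO clones. H3K27ac was called at Dlk1 over 13.2, 4.58 and 7.58 kb of its window in WT and not in KO, and Dlk1 H3K4me1 over 17.6, 18.0 and 15.8 kb in WT and 9.38, 7.18 and 9.38 kb in KO.

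Rtl1, the retrotransposon-derived gene read from the minus strand, had no H3K4me3 call in any library. In its window, which like all windows here is the gene body with 5 kb on either side, H3K27ac covered 5.54, 9.34 and 13.7 kb in WT and 5.53, 3.60 and 0 kb in KO, groups that only just failed to overlap. H3K4me1 covered 9.34, 10.5 and 11.7 kb in WT and 4.21, 3.01 and 5.14 kb in KO, lower in every KO clone. Within the Rtl1 body alone 0.16% of the WT H3K4me1 length was retained, so the KO calls lay in the margins of the window, one of which it shares with Rian. ChIP-seq does not tell the strands apart, and marks over Rtl1 cannot be assigned to it rather than to transcription from the other strand.

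The non-coding genes past Meg3 held active marks in WT and fewer in the KO. Rian, the host of a C/D box snoRNA cluster, had H3K27ac over 20.2, 16.6 and 23.0 kb of its window in WT and 9.40, 2.80 and 4.00 kb in KO, and H3K4me1 over 24.0, 26.4 and 28.6 kb in WT and 10.6, 12.6 and 17.2 kb in KO. Neither pair of groups overlapped. A small H3K27me3 patch in the Rian window, 8.00, 8.20 and 13.2 kb in WT, had no KO call. Mirg, which hosts a large microRNA cluster, had H3K27ac over 10.4, 16.4 and 15.2 kb in WT and in no KO library, and H3K4me1 over 8.24, 8.60 and 12.4 kb in WT and 4.20, 3.80 and 2.60 kb in KO. H3K4me3 was called at neither gene in any library.

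**Figure D4:**
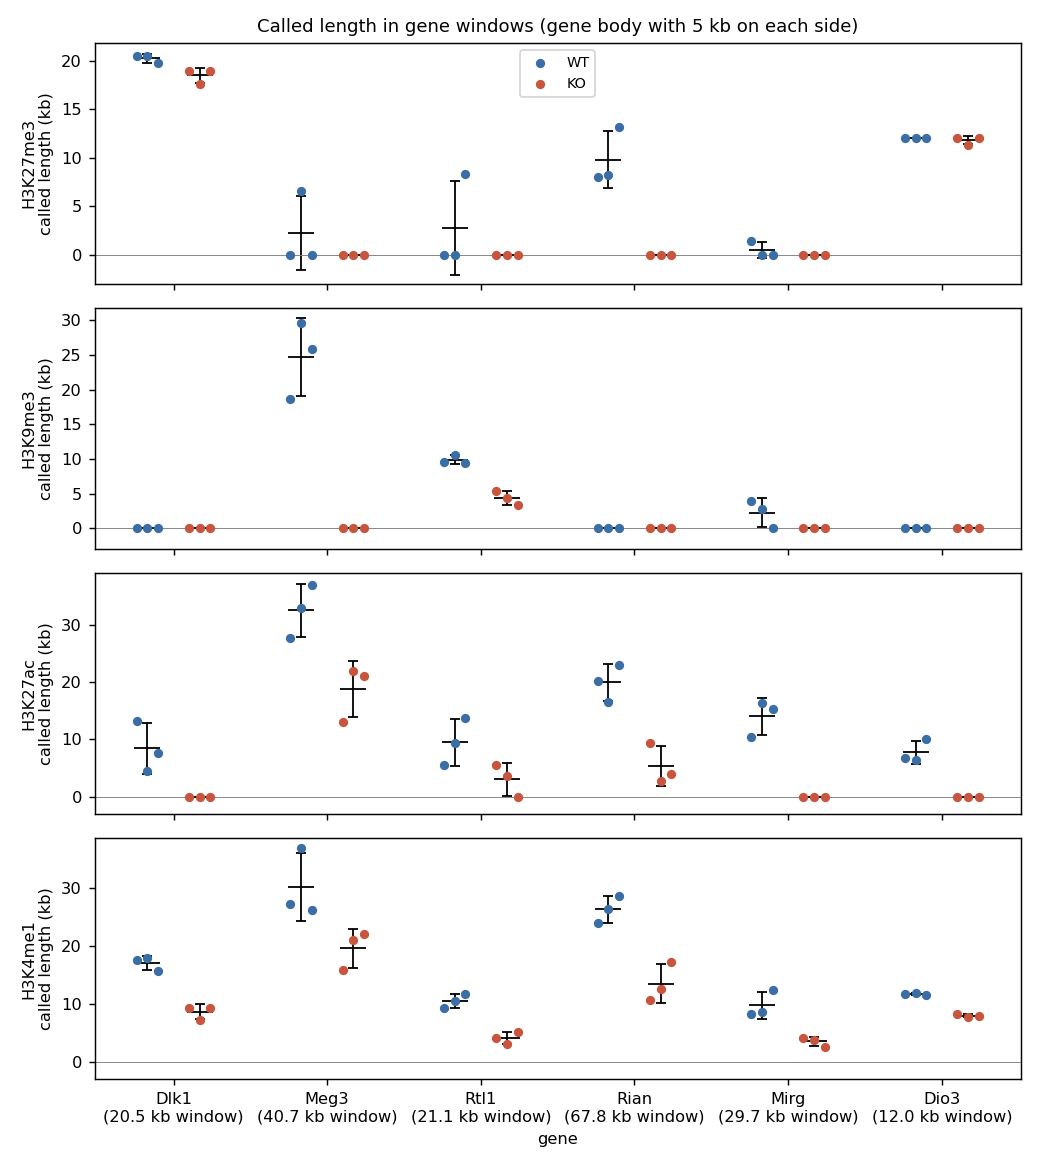
Called length in kb (y axis) in the window of each gene (x axis) for 4 modifications, 1 point per library (WT blue, KO red), with bars at the mean ± SD of 3 libraries. Dlk1 and Dio3 stayed almost fully covered by H3K27me3 in both genotypes, Meg3 H3K9me3 lay at 0 in the 3 KO libraries, and all 6 genes had less H3K4me1 in KO.

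Counted over the 6 windows, all KO libraries lay below all WT libraries in 6 of 6 genes for H3K27ac and 6 of 6 for H3K4me1. That pattern held for 7.9% and 14.3% of all annotated gene windows with a call, but for 93.5% and 94.7% of the flanking protein-coding windows of the stretch, so the members stood as their neighbours did. It held for 2 of 6 genes for H3K27me3 (Dlk1 and Rian, against 6.51% of all windows and 73.5% of flanking ones), 2 for H3K9me3 (Meg3 and Rtl1, against 11.6% and 57.9%) and 1 for H3K4me3 (Dio3, against 7.27% and 55.7%). A call in 3 of 3 WT and 0 of 3 KO libraries was seen at Dlk1, Mirg and Dio3 for H3K27ac (2.02% of all windows and 27.1% of flanking ones), at Meg3 for H3K9me3 (2.49% and 31.6%) and at Rian for H3K27me3 (1.19% and 19.4%). In the opposite direction, Meg3 H3K4me3 covered 1.38, 1.47 and 1.53 kb in WT and 1.54, 1.86 and 1.65 kb in KO, a pattern of 24.3% of all windows and 0 of 97 flanking ones. In sum the 6 windows retained 63.7% of their WT H3K27me3 length, against 37.2% in flanking protein-coding genes, 54.4% against 42.0% for H3K4me1, 29.5% against 20.8% for H3K27ac, 11.9% against 18.1% for H3K9me3 and 66.0% against 66.2% for H3K4me3. Against the protein-coding genes within 2 Mb of the domain the order for H3K9me3 was the opposite, since those retained 7.83%, and 11 of the 12 called in all 3 WT libraries (91.7%) had no KO call.

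The domain holds 112 other annotated genes, most of them microRNA and snoRNA genes inside the long transcripts. Of these, 84 had an H3K27ac call in some library and 37 were called in 3 of 3 WT and 0 of 3 KO libraries, while for H3K9me3 the numbers were 70 and 32. For H3K4me1 they were 82 and 9 (against 0.734% of all windows with a call and 12.4% of flanking ones), for H3K27me3 32 and 5, and for H3K4me3 8 and 1 (against 0.457% and 2.06%). Many share 1 called region, so they are not separate observations. Past Mirg, the H3K27ac region from +394 to +419 kb, picked after its values were seen, spanned 23.6, 20.0 and 23.2 kb in WT and 8.8, 11.8 and 8.4 kb in KO. Its ChIP reads per kb, 97.3, 113 and 111 in WT and 120, 98.1 and 105 in KO, overlapped. At its centre a H3K4me3 peak from +406.2 to +406.4 kb was called in the 3 KO libraries alone, at a fold of 5.53, 4.08 and 5.31, whereas 0 of 104 KO H3K4me3 peaks in the rest of the stretch lacked a WT call and 5.45% did over the rest of the genome. A peak from +646.4 to +647.3 kb was called in the 3 WT libraries alone, at a fold of 5.03, 4.49 and 4.61, where 6.2% of WT H3K4me3 peaks in the rest of the stretch and 1.32% over the rest of the genome lacked a KO call.

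To compare the genotypes with the lower KO input taken into account, ChIP reads in each gene window were fitted with edgeR's quasi-likelihood test, with the called length and the local input level of the genotype as offsets, over all windows called in all 6 libraries. A difference in this fit is one of read density inside the sequence that each library itself called, relative to input, and in most members the KO libraries called only a portion of the WT sequence. Because the domain was selected on the lower KO input, which enters the fit as an offset, a positive value is given as a description and shows no gain of mark, and the value without the input offset stands beside it. The input offset of a window is the same for all libraries of a genotype and has no replicate. Its error is therefore not part of the SE or the adjusted p. For H3K4me1 6 of 6 members had a positive difference past an adjusted p of 0.05, as had 2.55% of all windows and 78.3% of flanking ones. Rtl1 showed a log2 difference of 0.85 ± 0.09 (SE, adjusted p = 0.000543), Meg3 0.68 ± 0.05 (adjusted p = 7.72e-05), Mirg 0.63 ± 0.09 (adjusted p = 0.00392) and Rian 0.49 ± 0.07 (adjusted p = 0.00331), around a flanking median of 0.39. Rtl1 stood high among its neighbours, with 3 of 92 flanking windows as high. Its KO calls lay in the margins of its window, though, 1 of which it shares with Rian. Rtl1 had no value in the fit of gene bodies alone. Dlk1 (0.25 ± 0.06, adjusted p = 0.0351) and Dio3 (0.31 ± 0.07, adjusted p = 0.0373) lay below the flanking median. Without the input offset, where the flanking median was −0.54, Dlk1 H3K4me1 was at −0.59 (adjusted p = 9.36e-05), Dio3 at −0.69 (adjusted p = 0.000151), Rian at −0.36 (adjusted p = 0.00840), Mirg at −0.22 (adjusted p = 0.202), Meg3 at −0.17 (adjusted p = 0.0922) and Rtl1 at 0.0042 (adjusted p = 0.987). No member was thus positive past the threshold on ChIP reads alone, nor was any flanking window. Negative past it were 3 members, as were 73 of 92 flanking windows and 565 of all 30226 windows. The Dlk1 call was lost without any 1 of the 6 libraries, at an adjusted p of 0.109, 0.0815 and 0.0577 without WT clones 1, 2 and 3 and of 0.0972, 0.0856 and 0.105 without KO clones 1, 2 and 3, and in the Dlk1 body alone the difference was 0.08 (adjusted p = 0.590). The Dio3 call was lost without WT clones 1 and 2 (0.109 and 0.110) or KO clones 1, 2 and 3 (0.0927, 0.127 and 0.0647) and in the Dio3 body alone (0.0897). Without the length offset Meg3 was at 0.10 (adjusted p = 0.648) and the other 5 members were negative.

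For H3K27ac only Meg3 and Rian were called in all 6 libraries, and their differences in this fit were 0.88 ± 0.06 (adjusted p = 0.000346) and 0.51 ± 0.08 (adjusted p = 0.00862). Of all windows 4.64% and of flanking windows 91.5% were positive past the threshold, with a flanking median of 0.81, so Meg3 lay near the median of its neighbours and Rian below it. Without the input offset neither passed, with Meg3 H3K27ac at 0.08 (adjusted p = 0.448) and Rian at −0.28 (adjusted p = 0.0656). For H3K27me3 the difference of Dlk1 was 0.49 ± 0.08 (adjusted p = 0.0166) and that of Dio3 0.60 ± 0.12 (adjusted p = 0.0401), against a flanking median of 0.63 and shares of 0.864% of all and 65.3% of flanking windows that were positive past the threshold. Without the input offset Dlk1 H3K27me3 was at −0.40 (adjusted p = 0.0464) and Dio3 at −0.42 (adjusted p = 0.139), so the direction of both values rests on the input term. The Dlk1 H3K27me3 call was lost without WT clone 1 (0.0785) or 2 (0.0691) and without KO clone 1 (0.0697) or 3 (0.0704), and without the length offset (0.121), and the Dio3 call without WT clone 1 (0.136), 2 (0.0962) or 3 (0.0962) and KO clone 1 (0.0806) or 2 (0.0949), without the length offset (0.0653) and in the gene body alone (0.0681). For H3K9me3 only Rtl1 could be fitted, at 0.48 ± 0.12 (adjusted p = 0.0653), where 0.937% of all windows and 41.7% of flanking ones were positive past the threshold, and at −0.12 (adjusted p = 0.755) without the input offset.

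**Figure D5:**
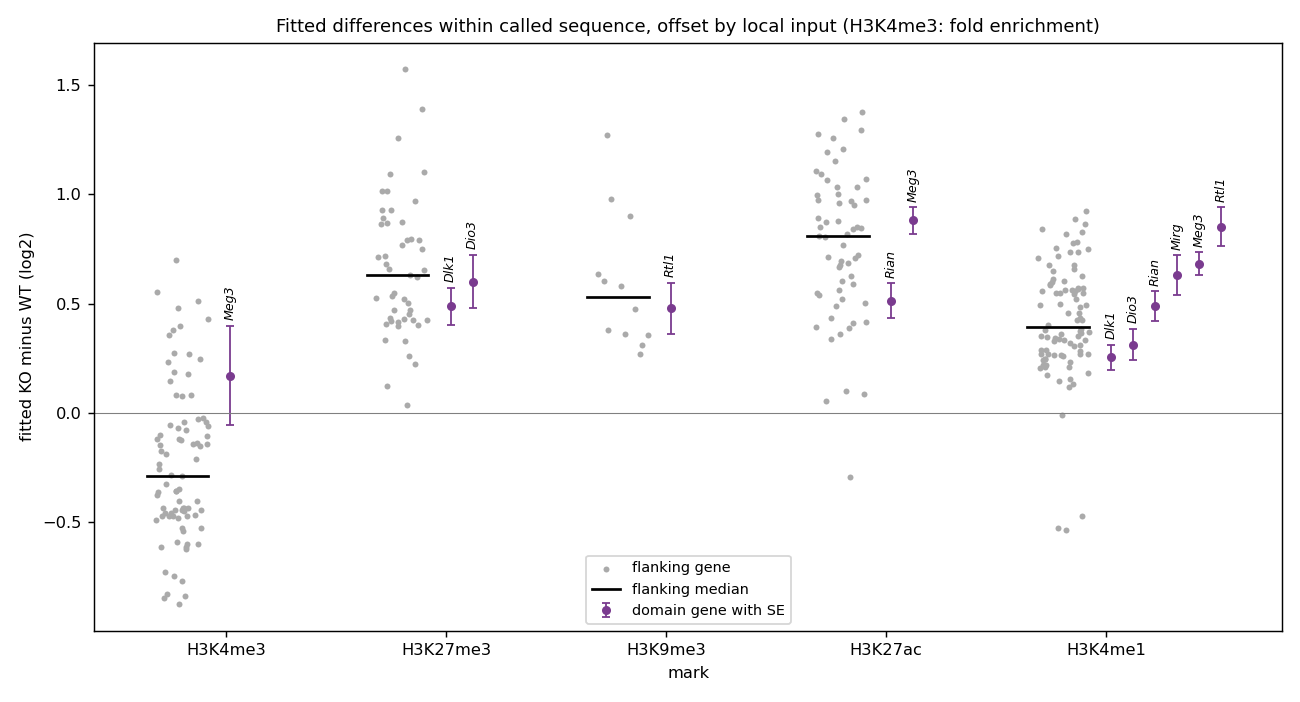
Fitted KO minus WT differences on the log2 scale (y axis) for the domain genes (purple, bars are SE) and flanking protein-coding genes (grey, line at the median) by modification; H3K4me3 is the difference in fold enrichment. The members lie inside the spread of their neighbours, with Rtl1 H3K4me1 at 0.85 near its top.

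H3K4me3, for which the lists hold no counts, was fitted with limma on the log2 of the highest fold enrichment in each window. Meg3 differed by 0.17 ± 0.23 (adjusted p = 0.651). Of 6 annotated genes of the domain that could be tested, 2 rose, and both are entries for Gm27528, an annotated transcript whose window holds the peak at −13.3 to −12.4 kb. Its value was 0.79 ± 0.23 (adjusted p = 0.0238), where 10.6% of all windows and 1.19% of 84 flanking windows rose, the flanking median was −0.29 and 0 flanking windows were as high. The call was lost without WT clone 1 (0.124), KO clone 2 (0.0570) or KO clone 3 (0.0947), with covered length in place of the fold (0.291), and with windows called in at least 3 libraries and an uncalled one at a fold of 1 (0.0804). The fold is taken over each genotype's own background, and the part of the lower KO input in it was not tested.

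Reads alone, without a fit, placed the members among their neighbours in the same way. For Meg3 H3K27ac the KO minus WT log2 difference in ChIP reads per kb was 0.11 and in input reads per kb −0.89, and 21 of 73 flanking genes had as high a difference of ChIP per input read. For Rtl1 H3K4me1 the 2 differences were −0.02 and −0.99, and 2 of 96 flanking genes were as high. For Dlk1 H3K27me3 they were −0.40 and −0.57, with 52 of 63 as high, and for Dio3 H3K27me3 −0.42 and −0.95, with 29 of 63 as high.

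The nearest protein-coding neighbours framed the domain. Begain, before Dlk1, had H3K27me3 over 42.2, 45.2 and 43.4 kb in WT and 39.8, 41.0 and 41.6 kb in KO, and H3K4me3 over 3.58 kb in WT and 1.08 kb in KO on average. Ppp2r5c, past Dio3 and a subunit of the phosphatase PP2A, had H3K27ac over 131, 129 and 142 kb in WT and 87.6, 92.6 and 95.8 kb in KO. Both genes had less called sequence in every KO clone for these marks. Genes were also ranked by closeness to a member, as the mean absolute difference of covered share in percentage points over the 30 libraries, among 32076 genes. The closest were Tnfaip2 (3.77) and 4930478K11Rik (4.48) for Dlk1, and Evl (3.89) and Gm11111 (4.20) for Mirg. For Rian they were Rapgef5 (3.09) and AC125091.2 (3.83). Of these, Tnfaip2, 4930478K11Rik, Evl and Rapgef5 lie in the same stretch. For Meg3 the closest genes were farther off, Atp5s at 10.1 and Gm33819 at 10.3, for Rtl1 they were Olfr1338 at 7.94 and Cflar at 8.54, and for Dio3 Hlx at 4.92 and Gm30177 at 5.35.

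Other imprinted loci were counted for H3K9me3, since the mark at Meg3 had no KO call. All 19 loci listed had a call in the 3 WT libraries. Igf2r and Airn were both counted though they belong to the same imprinted domain, so they are not separate observations. In the KO, 10 were called in all 3 libraries, and these retained between 11.1% and 86.7% of their WT length, with a median of 27.6% and 7 of the 10 under 50%. Among 15924 annotated gene windows called in all 3 WT libraries, 12619 were called in all 3 KO libraries and 627 (3.94%) in none. Their median retained length was 89.0%, and all annotated gene windows in sum retained 91.0%. Snrpn went from 18.6 kb in WT to 2.07 kb in KO on average, Gnas from 23.7 to 3.29 kb and Igf2r from 23.7 to 4.33 kb, while Kcnq1ot1 with 41.2 and 35.7 kb and Rasgrf1 with 10.5 and 8.87 kb retained the most. The 5 loci Mest, Nap1l5, H19, Nnat and Mcts2 were called in no KO library, and Peg3, Plagl1, Zrsr1 and Impact were called in some. Meg3 was therefore not alone among imprinted loci in having H3K9me3 calls in WT and none in KO.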

How the data were processed

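The members and lists were chosen with earlier results of these data known. Per the labels and methods, the authors trimmed reads (Trim Galore 0.6.6), aligned them (Bowtie2 2.4.4 among the submitters' tools), dropped multimapped and blacklisted reads, and called regions per library against 1 input per genotype. For 4 modifications the authors deposited epic2 lists with a count of ChIP and of input reads, a p-value, a log2 ratio and a score per region. For H3K4me3 the deposited MACS2 lists give a fold enrichment (ratio), −log10 p and q and a score, and no counts. The methods do not cover H3K9me3, and its aligner is not given in the sources used here. Labels and methods differ on the H3K27ac antibody.

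Calls were set on GRCm38 with GENCODE vM21, and reads of a call were shared out by length. Merged regions join the calls of 1 genotype and need all 3 libraries. Retained length is the other genotype's mean called length inside, in percent. Windows with 10 or more reads in all 6 libraries entered edgeR 4.0.16 (R 4.3.3, TMM, Benjamini-Hochberg) with offsets for called length and input per 1 Mb, and limma 3.58.1 served H3K4me3. The methods give a range of sequencing depth for each modification except H3K9me3, and the lists hold only reads inside calls. Scripts were tested on simulated data. The 6 members were named, with the 2 closest genes each, the nearest neighbours and a list of imprinted loci. Of the other domain genes only Gm27528 was named, and the rest were counted. Clones with the same number were not paired, since the correlation of their deviations was at most 0.0737.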

Additional observations from a re-analysis of the deposited data

How the results depend on the processing

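The count of windows past an adjusted p of 0.05 varied with the settings of the fit. For H3K27me3 it was 294, and 1034 with the window's own input as offset, 1265 without the length offset, 169 with windows of a length ratio of at least 0.8 and 479 with DESeq2. For H3K9me3 it was 325, and 76 without the input offset, 1697 with own input, 764 without the length offset, 204 with the length ratio and 630 with DESeq2. For H3K27ac it was 1930, and 3138 with own input, 3942 without the length offset, 967 with the length ratio and 1202 with gene bodies alone. For H3K4me1 it was 1466, and 4722 with own input, 5937 without the length offset and 890 with gene bodies alone. With the replicate number as a block the counts were 164 for H3K9me3, 1224 for H3K27ac and 3294 for H3K4me3, where the count was 2915. The block ended the calls of Dio3 H3K27me3 (adjusted p = 0.0597), Dlk1 H3K4me1 (0.0621) and Dio3 H3K4me1 (0.0707). Leaving out 1 library left 1684 to 2511 H3K4me3 windows, 659 to 883 of H3K4me1, 990 to 1158 of H3K27ac, 92 to 200 of H3K9me3 and 152 to 204 of H3K27me3. The causes of these shifts were not tested.

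The direction of the fitted differences rested on the offsets. Without the input offset the flanking median of H3K4me1 was −0.54, that of H3K27ac −0.18, that of H3K9me3 −0.38 and that of H3K27me3 −0.37, and without the length offset they were −0.75, −1.32, −0.92 and −0.45. Members without the input offset were at −0.40 (Dlk1 H3K27me3), −0.42 (Dio3 H3K27me3), −0.12 (Rtl1 H3K9me3), −0.28 (Rian H3K27ac), −0.59 (Dlk1 H3K4me1), −0.17 (Meg3 H3K4me1), −0.36 (Rian H3K4me1), −0.22 (Mirg H3K4me1) and −0.69 (Dio3 H3K4me1), and Gm27528 at −0.0065 for H3K27ac and −0.23 for H3K4me1. Without the length offset they were at −0.60 (Rtl1 H3K9me3), −0.031 (Meg3 H3K27ac), −1.50 (Rian H3K27ac), −0.70 (Dlk1 H3K4me1), −0.48 (Rtl1 H3K4me1), −0.45 (Rian H3K4me1), −0.81 (Mirg H3K4me1) and −0.21 (Dio3 H3K4me1).

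Called length also moved with the settings, beyond the ranges found when 1 library was left out. KO length in percent of WT was 32.1 to 34.2 for H3K27ac, 43.2 to 45.9 for H3K27me3, 48.0 to 53.0 for H3K4me1, 70.1 to 82.5 for H3K4me3 and 19.5 to 21.3 for H3K9me3 when 1 library was left out. Over the union of gene windows H3K4me1 was at 56.5, H3K27ac at 30.5, H3K9me3 at 11.9 and H3K27me3 at 65.7, and with equal numbers of top-ranked calls 29.7 for H3K9me3 and 37.5 for H3K27ac. Over the 6 members H3K27me3 was 63.7, and 49.3 with gene bodies alone and 73.9 with an FDR under 0.01. H3K9me3 was 11.9 over the members, and 17.6 with gene bodies alone. With no minimum width 55.1% of comparable H3K9me3 regions were called in all 3 KO libraries. Depth limits these results in that a list holds no reads outside its calls, so an uncalled library gives no level, and the input of each genotype has no replicate.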
